A study of Mus musculus with 5 samples.

Results

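The genes described here are 36 genes of DNA replication and mitosis, taken from a fixed list of names. The list was chosen with earlier results of these data known. Of the 36, 18 act mainly in the entry into and progress of S phase and are called replication members here, and 18 act mainly in G2 and mitosis and are called mitotic members. In all, 35 of the 36 had a probe set with a single gene symbol, of 19938 genes measured, and Ccnb1 had none. For a gene with several such probe sets the one of highest mean was used. A gene was called detected at a mean log2 intensity of at least 6, which 6603 genes reached.

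The 5 mice were female, 10 weeks old and of the NOD strain, in which autoimmune diabetes arises spontaneously. Each pancreas was imaged by MRI and then taken, its CD45+ cells, the leukocytes, were sorted, and their RNA was hybridised to 1 array for each mouse. The mice form 1 group with no control, and differ in the label T2, the transverse relaxation time of the imaged tissue: 28.98, 30.02, 32.77, 35.24 and 35.3 ms in mice 5, 4, 3, 2 and 1. Values are given in this order of rising T2. Ptprc, which encodes CD45, had a log2 intensity between 10.94 and 11.20 in the 5 mice. The sort mixes all leukocytes of the organ, and fewer dividing cells and less RNA per dividing cell cannot be told apart. A level is a log2 intensity of 1 probe set, so levels of different genes are not set against each other, and a gene under the filter is not thereby absent.

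A cell that commits to division turns on transcription of its replication genes through the E2F factors late in G1. Cdc6 and Cdt1 load the Mcm helicase on replication origins, Cdc45 activates it, and ribonucleotide reductase, Tyms and Tk1 provide nucleotides. Genes of mitosis are switched on later, in G2, through the CCAAT-binding factor NF-Y and the cell cycle homology region (CHR), a promoter element bound by the MuvB complexes. Dividing lymphocytes in an inflamed islet or a lymphoid follicle carry both programmes, while replication genes such as Pcna and the Mcm genes are also transcribed in activated cells that are not in mitosis.

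Promoters of 31 members were found in the RefSeq table for GRCm38.p6, as 33 stretches, since Mcm7 and Uhrf1 have several. The 250 bases before each gene start were searched on both strands for the CHR letters TTTGAA or TTCGAA, for the CCAAT box letters CCAAT, and for the E2F letters TTTCCCGC, TTTGGCGC or TTCCCGCC. A CHR was found in 3 of 18 replication promoters (16.7%), in 8 of 15 mitotic promoters (53.3%) and in 17.1% of all 32851 promoters in the table. A CCAAT box was found in 12 of the replication (66.7%), 13 of the mitotic (86.7%) and 33.8% of all promoters. More than 1 CCAAT box was found in 6 replication and 9 mitotic promoters, and in 10.1% of all. E2F letters were in 6 of the replication promoters (33.3%), 0 of the mitotic ones and 2.69% of all. Short letters occur by chance, the first and last E2F words share letters, and a match is a description of the sequence, not a measured binding site.

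The promoters below are those of 2 replication and 2 mitotic members with a wide range over the mice and a match in the window. Mcm2 and Uhrf1 have the same rounded range of 0.43 log2, and Mcm2, which comes first in the list of members, is shown. Each is printed 5′ to 3′ on the gene's strand and ending at the base before the gene start. Capitals mark every CHR, CCAAT and E2F match. All 4 genes lie on the minus strand of GRCm38.p6, with Mcm6 at chr1:128359706-128359955, Mcm2 at chr6:88898781-88899030, Top2a at chr11:99024190-99024439 and Ccnb2 at chr9:70421555-70421804.
Mcm6: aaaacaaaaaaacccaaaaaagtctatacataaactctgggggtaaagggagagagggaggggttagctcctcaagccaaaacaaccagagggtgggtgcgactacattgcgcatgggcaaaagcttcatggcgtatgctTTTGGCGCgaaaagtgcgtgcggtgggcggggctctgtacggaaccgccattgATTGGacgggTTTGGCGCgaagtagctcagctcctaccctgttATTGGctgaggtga
Mcm2: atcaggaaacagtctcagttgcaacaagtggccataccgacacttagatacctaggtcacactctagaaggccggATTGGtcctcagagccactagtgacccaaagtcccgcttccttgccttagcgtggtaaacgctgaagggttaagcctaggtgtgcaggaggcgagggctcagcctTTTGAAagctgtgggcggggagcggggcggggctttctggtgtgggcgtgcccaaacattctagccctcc
Top2a: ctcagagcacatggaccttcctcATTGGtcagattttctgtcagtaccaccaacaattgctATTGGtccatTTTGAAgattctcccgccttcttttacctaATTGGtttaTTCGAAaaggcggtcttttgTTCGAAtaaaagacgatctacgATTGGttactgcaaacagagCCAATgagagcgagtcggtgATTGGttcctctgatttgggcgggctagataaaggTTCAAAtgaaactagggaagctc
Ccnb2: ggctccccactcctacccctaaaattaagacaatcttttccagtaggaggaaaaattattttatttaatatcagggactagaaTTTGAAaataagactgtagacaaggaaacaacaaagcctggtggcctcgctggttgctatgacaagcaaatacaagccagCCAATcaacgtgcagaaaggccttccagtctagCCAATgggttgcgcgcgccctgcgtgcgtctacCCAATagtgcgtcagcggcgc
The Mcm6 promoter holds 2 E2F matches of the letters TTTGGCGC and 2 CCAAT boxes. Mcm2 has 1 CCAAT box and 1 CHR match and none of the E2F letters searched in this window. The Top2a promoter holds 6 CCAAT boxes and 4 CHR matches. Ccnb2 has 3 CCAAT boxes at even spacing near the start and 1 CHR match farther out.

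Of the 35 measured members 10 were detected, against 6603 of all 19938 genes measured. Of the 10 detected members 9 were replication members, the 6 Mcm genes, Pcna, Rrm1 and Cdt1, and 1 was mitotic, Mki67. Levels of different probe sets are not comparable, so this split is not a measured difference in expression between the classes. The other 9 replication and 16 mitotic members with a probe set lay under the filter. Just inside it were Cdt1, Mki67 and Mcm5, with mean log2 intensities of 6.34, 6.35 and 6.38, and just outside were Ccne1, Ccna2 and Top2a, with 5.98, 5.79 and 5.77. A filter of 5 kept 22 members and a filter of 7 kept 4. The split depends on the filter. At 5 the mitotic Top2a, Ccna2, Ccnb2, Cdc20, Ube2c, Aurka, Aurkb and Plk1 were kept as well.

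Among the licensing genes, Cdt1, the loader of the helicase, read 6.35, 6.35, 6.25, 6.42 and 6.35 in mice 5, 4, 3, 2 and 1. It was the detected member of smallest spread, with an SD of 0.063 (n = 5).

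The 6 Mcm genes encode the subunits of the ring-shaped replicative helicase. Mcm2 read 6.54, 6.97, 6.87, 6.96 and 6.67 in mice 5, 4, 3, 2 and 1. Mcm3 read 6.95, 7.27, 7.04, 7.15 and 7.03 in the same order of mice. Both were lowest in mouse 5 and highest in mouse 4. Mcm4 read 6.95, 7.07, 6.72, 7.0 and 7.01 in mice 5, 4, 3, 2 and 1, and was the 1 Mcm gene not lowest in mouse 5. Mcm5 read 6.19 in mouse 5 and 6.58 in mouse 4, and had the value 6.38 in mice 3, 2 and 1. The helicase genes differed between mice by less than 0.5 on the log2 scale, and the widest range among them was that of Mcm6. Mcm6 read 7.27, 7.51, 7.51, 7.75 and 7.51 in mice 5, 4, 3, 2 and 1. Mcm7 read 6.66, 6.73, 6.71, 6.92 and 6.73 in mice 5, 4, 3, 2 and 1. The mean over the 6 genes was 6.76, 7.02, 6.87, 7.03 and 6.89 in mice 5, 4, 3, 2 and 1.

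Pcna, the sliding clamp of the replicative polymerases, ran the other way. It read 8.87, 8.69, 8.72, 8.77 and 8.68 in mice 5, 4, 3, 2 and 1, and was the 1 member of the 35 that was highest in mouse 5. A second Pcna probe set gave 8.89 in mouse 5 and 8.67 to 8.76 in the other mice. Whether either probe set also reads copies of the gene elsewhere in the genome was not tested. Rrm1, the large subunit of ribonucleotide reductase, read 7.21, 7.41, 7.18, 7.29 and 7.16 in mice 5, 4, 3, 2 and 1. The detected replication members did not, then, share 1 order of the mice.

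**Figure D1:**
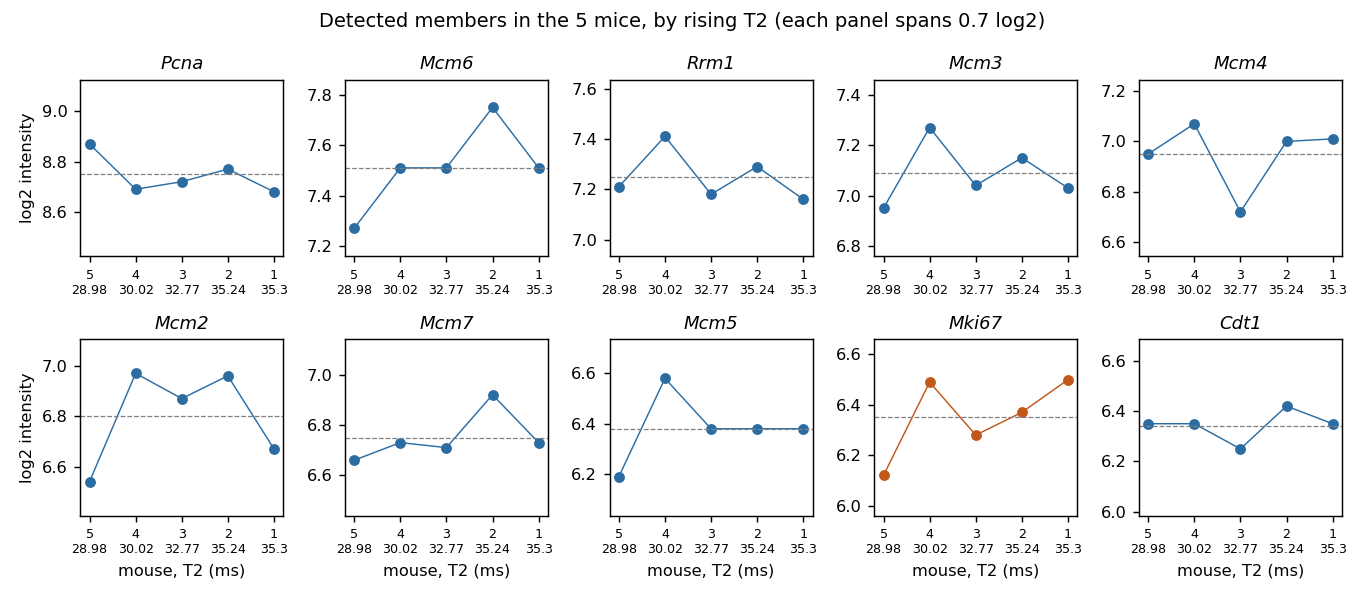
Log2 intensity of the 10 detected members in the 5 mice, 1 panel for each gene with the mice in order of rising T2 (second line of the axis labels, in ms), replication members in blue and Mki67 in orange, the dashed line at the gene's mean. Mouse 5 holds the lowest point in 6 of the 10 panels, and Pcna is highest there.

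Mki67, the chromosome-coating Ki-67 protein used as a marker of cycling cells, was the detected mitotic member. It read 6.12, 6.49, 6.28, 6.37 and 6.50 in mice 5, 4, 3, 2 and 1, with a mean of 6.35 ± 0.16 (SD, n = 5). Its lowest value was in mouse 5, and its range of 0.39 was within those of the Mcm genes, 0.26 to 0.48.

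No detected member changed with T2 beyond the spread of the mice. Log2 intensity was fitted on T2 with limma over all 6603 genes detected, and a fold is the fitted ratio of the highest over the lowest T2, 6.32 ms apart. None of the 10 members passed a Benjamini-Hochberg adjusted p of 0.05, and neither did any of the 6603 genes (0%). At an unadjusted p under 0.05 there were 0 members, against 349 genes (5.29%). The steepest slope was that of Mcm6, with a slope of 0.04 ± 0.020 log2 per ms (SE, n = 5), a fold of 1.21 (95% interval 0.953 to 1.55) and a limma adjusted p = 0.828. Leaving out each mouse moved that slope between 0.0246 without mouse 5 and 0.0629 without mouse 1, and without mouse 2 Mki67 was steeper. Mki67 had a fold of 1.13 (0.832 to 1.53; limma adjusted p = 0.831). Mcm7 had a fold of 1.10 (0.929 to 1.31) and Mcm2 1.08 (0.731 to 1.60). The intervals therefore leave room for changes of up to 1.60-fold in a single Mcm gene in this design.

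The other detected members had slopes closer to 0. Mcm3, Mcm5 and Cdt1 had folds of 1.01, 1.03 and 1.02, and Mcm4, Rrm1 and Pcna 0.994, 0.948 and 0.947, the last with an interval of 0.815 to 1.10. The slope was above 0 in 7 of the 10, against 28.9% of the genes tested, whose median slope was -0.0074; the members' median was 0.0056. Of the 35 measured members 26 had a slope above 0, against 44.6% of all genes measured. That count rested on mouse 5: without it, 10 of the 35 slopes were above 0.

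**Figure D2:**
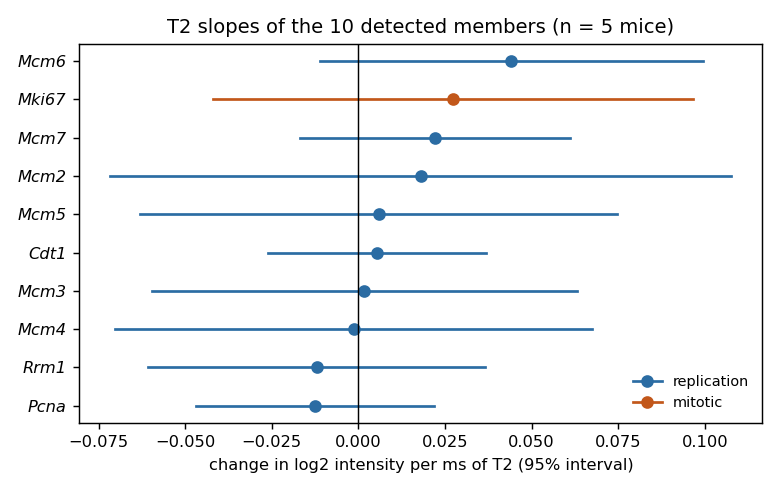
Slope of log2 intensity on T2 (change per ms, horizontal axis) of the 10 detected members, with 95% intervals from the moderated fit over 5 mice, replication members in blue and Mki67 in orange. Every interval includes 0, and Mcm6 has the highest slope.

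The widest differences among the members lay in mitotic genes under the filter, and in 1 mouse. Top2a, the topoisomerase that untangles replicated chromosomes, had an intensity of 31.1, 70.3, 59.4, 63.1 and 59.4 in mice 5, 4, 3, 2 and 1. Ccna2, cyclin A of S phase and G2, read 32.6, 76.8, 57.1, 64.0 and 57.1 in mice 5, 4, 3, 2 and 1. Both were lowest in mouse 5, where the next lowest mouse was 1.91 times higher for Top2a and 1.75 times higher for Ccna2. A second Top2a probe set, of mean log2 intensity 2.54, was lowest in mouse 1, at 2.40, and read 2.49 in mouse 5.

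Ccnb2, a B-type cyclin that drives entry into mitosis, read 23.3 in mouse 5, 37.3 in mouse 4 and 35.8 in each of mice 3, 2 and 1. Cdk1, the kinase that the mitotic cyclins activate, read 21.0, 28.7, 28.3, 28.8 and 27.0 in mice 5, 4, 3, 2 and 1. Again mouse 5 lay apart and the other 4 close together, and Ccnb2 with Top2a and Ccna2 were the 3 members at least 0.5 log2 below every other mouse, against 0.352% of the genes under the filter and 0.291% of all genes measured. The intensities are low, with array medians of 23.8 to 24.5 over all probe sets.

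The genes of the spindle and its checkpoint had smaller gaps. Cdc20, the activator of the anaphase-promoting complex, had a log2 intensity of 5.30, 5.59, 5.94, 5.97 and 5.69 in mice 5, 4, 3, 2 and 1. Aurkb, the kinase of the chromosomal passenger complex, read 5.24 in mouse 5 and 5.57 to 5.58 in the other mice. Plk1, a mitotic kinase, read 4.96 in mouse 5 and 5.23 to 5.43 in the others. Each of these was lowest in mouse 5, and so were Kif11, the motor that separates the spindle poles, at 3.62 against 3.89 to 4.19, and Bub1b, a checkpoint kinase homologue, at 3.56 against 3.75 to 3.89.

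The remaining mitotic members had ranges of up to 0.21 log2, the widest being that of Nusap1. Ube2c, Bub1, Kif20a, Cenpe and Nusap1 were lowest in mouse 5 by less than 0.1 log2, and Aurka and Birc5 were lowest in mouse 3, with ranges of 0.14 and 0.05. Among the replication members under the filter Uhrf1, which recruits the maintenance DNA methyltransferase to newly copied DNA, read 4.98 in mouse 5 and 5.40 to 5.41 in the others. E2f1, the transcription factor of the G1/S switch, read 4.88 in mouse 5 and 5.03 to 5.04 elsewhere, Cdc45 4.84 against 5.00, and Rrm2, the S-phase subunit of ribonucleotide reductase, 5.16 against 5.27 to 5.54. Tyms, the thymidylate synthase, ranged over 0.09 and Cdc6 over 0.42 with its lowest value in mouse 1. Ccne1 and Ccne2, the E cyclins of the G1/S transition, had the same value on all 5 arrays and so carry no information on differences. Tk1, thymidine kinase, ranged over 0.02 on the probe set used, while a second one, of lower mean, ran between 5.09 in mouse 2 and 5.73 in mouse 5.

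**Figure D3:**
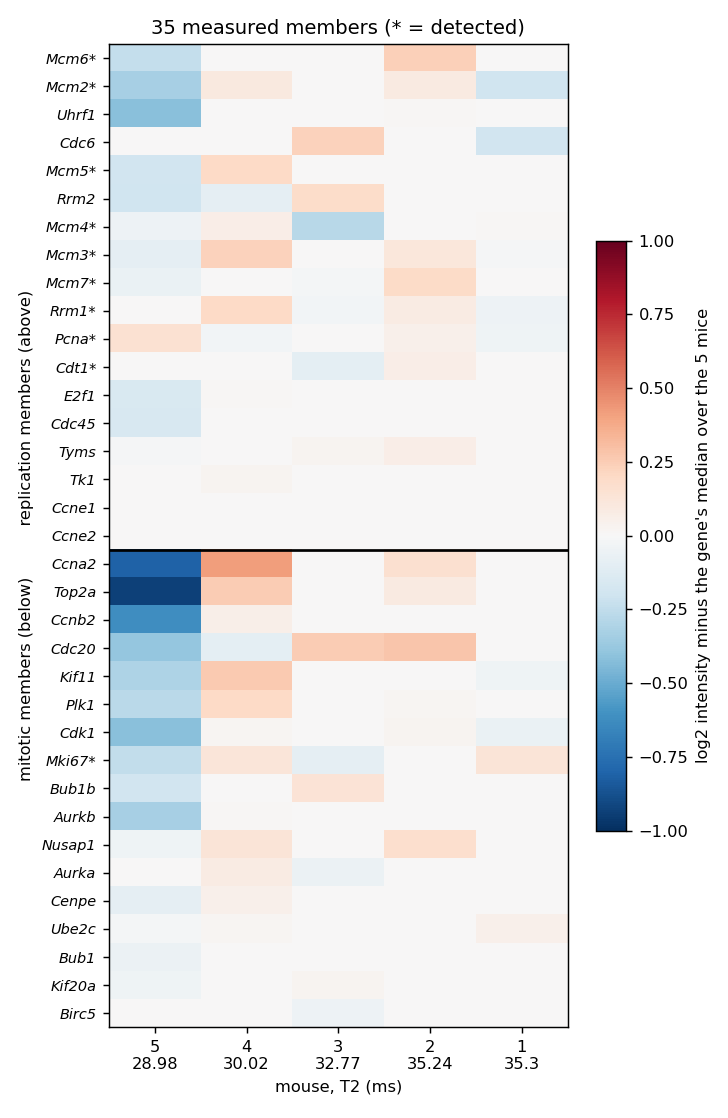
Log2 intensity minus the gene's own median over the 5 mice for the 35 measured members (rows, replication above and mitotic below the line, each sorted by range; an asterisk marks a detected gene) in the mice by rising T2 (columns). The column of mouse 5 is blue for most mitotic members, led by Top2a, Ccna2 and Ccnb2, and Pcna is red there.

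Counted over the members, mouse 5 had the lowest value alone for 10 of 18 replication and 15 of 17 mitotic members, 25 of 35 in all. The same held for 9.75% of the genes tested, 23.9% of the genes under the filter and 19.2% of all genes measured. By a gap of at least 0.1 log2 it was lowest for 17 of the 35, 7 replication and 10 mitotic, against 4.48% of genes tested and 12.9% of genes under the filter. The background moved with the scaling: mouse 5 had the highest median over the genes tested, 7.17 against 7.03 to 7.11, and with arrays centred on that median 37.7% of genes tested and 32 of 35 members were lowest in mouse 5. After a second quantile normalization these were 33.6% and 30. Mouse 4, of nearly the same T2 as mouse 5, was the highest for 15 of 35 members, against 12.4% of all genes measured, and was above mouse 5 for 29 of the 35 against 34.0%. Mouse 5 was chosen for this count after its values were seen, so the counts are a description with no test.

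**Figure D4:**
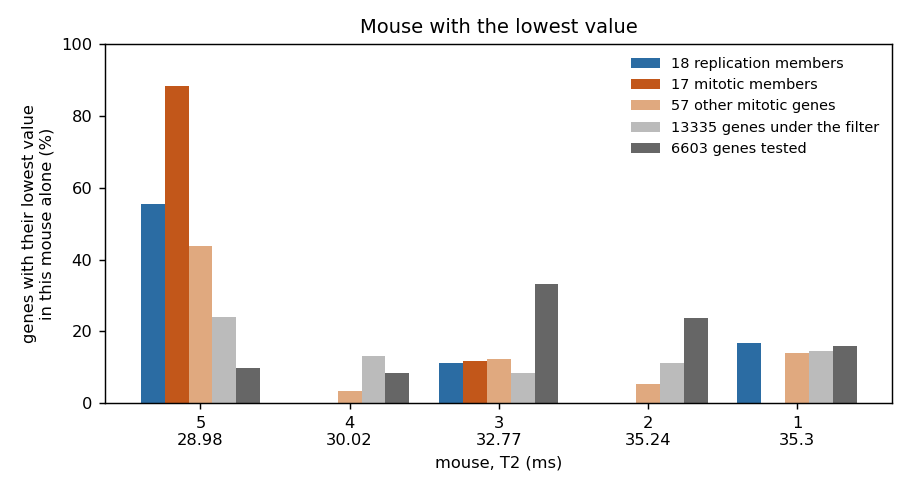
Percent of genes (vertical axis) whose lowest value lay in each mouse alone (horizontal axis, by rising T2), for the 18 replication and 17 mitotic members, 57 other mitotic genes, the genes under the filter and the genes tested. Genes with a tied lowest value are counted in no mouse, and the bars of the replication and mitotic members are highest at mouse 5.

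Replication and mitotic members both had their lowest mean in mouse 5, and the mitotic mean moved farther. Over all measured members the replication mean was 5.90, 6.04, 6.0, 6.05 and 5.97 in mice 5, 4, 3, 2 and 1. The mitotic mean was 4.50, 4.87, 4.79, 4.82 and 4.78 in mice 5, 4, 3, 2 and 1. The SD over the mice was 0.060 for replication and 0.15 for mitotic members (n = 5), and this gap was not tested. Without Mki67, Top2a and Ccna2 the mitotic SD was 0.10. The mean of 57 other measured mitotic genes moved less, at 4.42 in mouse 5 and 4.48 to 4.53 in the others. Its SD was 0.045, against 0.038 for 41 other replication genes. The replication minus mitotic difference was 1.40 in mouse 5 and 1.17 to 1.23 in the others. Its size rests on the probe sets of each class, so only its change between mice can be read.

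Against T2 the class means had slopes of 0.0092 ± 0.011 for replication and 0.03 ± 0.025 log2 per ms for mitotic members (SE, n = 5), and -0.02 ± 0.016 for the difference. Over the detected members alone they were 0.0079 ± 0.016 for replication, 0.03 ± 0.028 for Mki67 as the only mitotic one, and -0.02 ± 0.022 for the difference. Without mouse 5 the slopes over all measured members were -0.0046 for replication, -0.01 for mitotic members and 0.0069 for the difference. Without Mki67, Top2a and Ccna2, whose transcripts also rise in S phase, the mitotic slope was 0.02 ± 0.017. Mice 1 and 2, with T2 values 0.06 ms apart, differed by 0.08 in the replication and 0.04 in the mitotic mean, and 17 of 35 members were higher in mouse 2, 3 in mouse 1 and 15 equal, where 33.4% of all genes measured were higher in mouse 2.

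**Figure D5:**
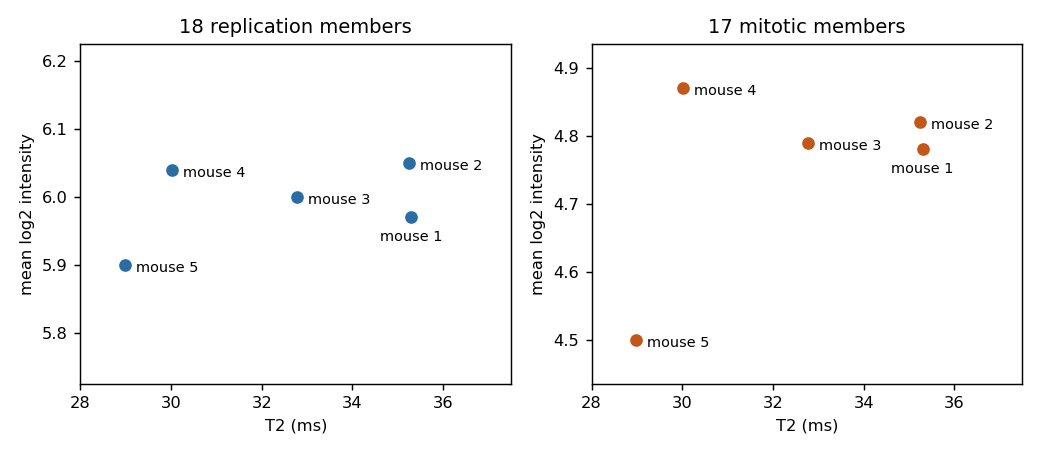
Mean log2 intensity of the 18 replication members (left) and the 17 mitotic members (right) in each mouse, against the T2 label of that mouse in ms. Mouse 5 is lowest in both, at 5.90 and 4.50, and the other 4 mice lie within 0.08 and 0.09 of each other.

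Equal values limit what these genes can show. RMA summarises a probe set by medians, and 18 of the 35 members had the same value on 3 or more arrays, as did 38.2% of the genes tested and 58.9% of all genes measured; 2 had it on all 5. The median SD over the mice was 0.12 for the 35 members, 0.13 for the 10 detected ones and 0.11 for all genes tested.

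Other genes of each programme were read beside the same counts over all genes. Of 60 further mitotic genes 57 were measured and 7 detected. Mouse 5 was lowest for 25 of the 57 (43.9%), against 23.9% of the genes under the filter and 19.2% of all genes measured. It was lowest by at least 0.1 log2 for 15, against 10.1% of all genes measured, and by at least 0.5 for 0. Of the 7 detected, 1 was lowest in mouse 5, against 9.75% of genes tested, and 3 in mouse 1. Their mean was 6.76 in mouse 5, within 6.73 to 6.82 in the others. None of the 7 passed the T2 test, 1 having a slope above 0. Racgap1, a cytokinesis regulator, had a slope of -0.02 ± 0.019, Smc4, a condensin subunit, 0.03 ± 0.050, Stmn1, a microtubule-destabilising protein, -0.0054 ± 0.012, and Cenpa, the centromeric histone variant, -0.0033 ± 0.0047. Of 43 further replication genes 41 were measured and 14 detected, 8 with slopes above 0 and none called. Mouse 5 was lowest for 10 of the 41 (24.4%), near the 23.9% of genes under the filter and 19.2% of all genes measured. Mouse 3 was lowest for 14, against 3295 of all 19938 genes measured and 2188 of the 6603 tested. Gins2 of the replicative helicase complex had a slope of 0.02 ± 0.0087, Rfc5 of the clamp loader -0.02 ± 0.011, Rpa1 of the single-strand binding complex 0.02 ± 0.015 and Pold1, a catalytic polymerase subunit, 0.02 ± 0.015.

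Most measured histones of the replication-dependent clusters were low in mouse 5 as well. Of 28 symbols listed, older and newer names together, 9 were measured and 5 detected. Of the 9, 6 had their lowest value in mouse 5, against 19.2% of all genes measured. Of the 5 detected, 4 did, against 9.75% of genes tested. H1f5, a linker histone, read 6.92, 8.02, 7.91, 8.34 and 7.73 in mice 5, 4, 3, 2 and 1. H1f1, another, read 6.41 in mouse 5 and 7.13 to 7.36 in the others, and H2bc9, a core histone, 7.02 against 7.32 to 7.63. H1f2 ran the other way, at 8.30 in mouse 5 and 7.90 to 8.12 in the others. None was called, with slopes of 0.11 ± 0.072, 0.09 ± 0.044, 0.06 ± 0.033 and -0.04 ± 0.016.

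Regulators of the cycle showed no called change with T2 either. Of 7 detected G1 cyclins and kinases 4 had slopes above 0: Ccnd1 had -0.10 ± 0.057, Ccnd2 0.04 ± 0.023 and Ccnd3 0.01 ± 0.013, the 3 D cyclins, and Cdc25a, an activating phosphatase, 0.03 ± 0.018 with its lowest value in mouse 5, at 5.94 against 6.24. Of 9 detected cell cycle transcription factors 3 had slopes above 0, with Myc at -0.01 ± 0.0083, the pocket protein Rbl1 at -0.0074 ± 0.0067, and Lin54 and Lin37 of the MuvB core at 0.01 ± 0.011 and -0.02 ± 0.020. Of 13 detected inhibitors and quiescence genes 5 had slopes above 0. Btg2, an antiproliferative gene that is also an immediate early gene, read 9.56, 9.23, 9.32, 9.12 and 9.05 in mice 5, 4, 3, 2 and 1, with a slope of -0.06 ± 0.020 (limma adjusted p = 0.828). Tob1, an antiproliferative protein of the same family, was highest in mouse 5, at 7.70 against 7.17 to 7.32, with a slope of -0.05 ± 0.026. Klf2, a quiescence factor of lymphocytes, had -0.03 ± 0.016 and Pkmyt1, an inhibitory kinase of Cdk1, 0.02 ± 0.010.

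Marker lists of dissociation stress and of germinal centre B cells also had an extreme mean in mouse 5, while macrophage markers were high in mice 5 and 4. All 14 measured genes of dissociation stress were detected, their mean was 8.87 in mouse 5 and 8.15 to 8.44 in the others, and 12 were highest in mouse 5, as were 34.3% of the genes tested, with a summed intensity between 6349 and 10000 over the mice. The mean of 9 detected macrophage markers of 13 measured was 9.34 in mouse 5, 9.30 in mouse 4 and 8.27 to 8.87 in the others, with summed intensities of 5137 to 9525. The 4 detected germinal centre B cell genes of 8 measured averaged 6.78 in mouse 5 and 6.97 to 7.06 in the others, with sums of 569.7 to 625.4. Of the 4, 2 were lowest in mouse 5, among them Basp1 at 5.78 against 6.41 to 6.59. Gna13 was highest there. RMA gives no intensity of 0, so no marker was at 0. Hspa1a and Dnajb1, heat shock genes of the stress list, had T2 slopes of -0.38 ± 0.040 and -0.15 ± 0.036, and Apoe and C1qa of the macrophage list -0.24 ± 0.020 and -0.25 ± 0.029, with none called. The part of these cells and of handling stress in the low mitotic values of mouse 5 was not tested.

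Lymphocyte and neutrophil lists did not have an extreme in mouse 5. The 13 detected T cell markers averaged 8.45 in mouse 5, within 8.25 to 9.02 in the others, and the 13 detected B cell markers 8.68, within 8.09 to 8.98. The 6 detected neutrophil markers averaged 8.0 in mouse 5, within 6.85 to 8.76. None of the 10 granulocyte precursor genes, markers of a dividing myeloid pool, was detected, and their mean was 4.65 in mouse 5 and 4.46 to 4.83 in the others. Of 6 erythroid precursor genes 1 was detected, Tfrc, the transferrin receptor that dividing cells of other lineages also carry. The detected means of plasma cell genes, 7.43, cytotoxic genes, 6.90, dendritic cell markers, 7.19, and acinar genes, 8.06, in mouse 5 lay within or at the edge of the 6.94 to 7.70, 6.41 to 7.14, 6.82 to 7.19 and 7.22 to 8.28 of the others. The markers picked by largest moderated t in these lists, Cd247 and Cd3e, Cd79a and Blk, Mmp9 and Csf3r, Mzb1 and Xbp1, Eomes and Nkg7, Siglech and Fscn1, Ctrb1 and Cpa1, had slopes between -0.17 for Fscn1 and 0.08 for Cd247, none called.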

How the data were processed

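Probe-set intensities on a linear scale were deposited as 1 table of 5 arrays, and the submitters' processing notes name RMA and Affymetrix Power Tools. For their versions and for a genome build, nothing was given in the sources used here. Background subtraction, quantile normalization and median polish of each probe set are the steps of RMA. The values ran from 2.87 to 19435 and were turned to log2. With 5 arrays, it is their number that limits precision. Of 35556 probe sets 21789 have 1 gene symbol in GEO's platform annotation, 1621 several (not named) and the rest are unnamed here. For 19938 genes the probe set of highest mean was taken, and 6603 with a mean log2 of at least 6 were tested for a slope on T2 in R 4.3.3 by limma 3.58.1 (lmFit and eBayes, 3 residual degrees of freedom, two-sided, Benjamini-Hochberg adjusted p under 0.05). Slopes and standard errors of genes under the filter come from a fit with no filter, and those of class means from ordinary least squares. The fit was tested on simulated data. Labels name separate mice and no date or batch, so no batch could be tested, and the p-values measure the spread of these mice. T2 fell with the sample number, and any effect of handling in that order cannot be told apart from T2. No correlation was computed over 5 mice.

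The members, the gene lists and the comparisons were chosen with earlier results of these data known. All 36 members are named, and of other lists the detected genes of largest moderated t, 4 for each cell cycle list and 2 for each cell type list. Promoter sequences are RefSeq's for GRCm38.p6. The alternatives were filters, scalings, probe sets, ranks of T2, variance models, array weights and each mouse left out; those over all measured members and for the counts in mouse 5 were added after the values were seen.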

Additional observations from a re-analysis of the deposited data

Results flagged for a closer look

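Of 37 sets of 5 values tested (33 members with any spread and 4 class values), 13 had 1 mouse set apart, by its gap to the nearest other mouse as a share of the whole range, above 0.71. The threshold is set to flag about 1 in 20 independent sets. These sets share the same 5 arrays, and the class values are built from the members. The rate over all genes was not computed, so the 13 have no background. Of the 13, 9 are low in mouse 5. Further, 8 of the 13 are genes with the same value on 3 or more arrays, where a small step gives a large share. The gap shares of mouse 5 on the low side were 0.794 for Top2a, 0.914 for Ccnb2, 0.791 for Cdk1, 0.979 for Aurkb, 0.961 for Uhrf1, 0.912 for E2f1, 1 for Cdc45 and 1 for Bub1, the last at 3.42 against 3.48. The mean of the 17 mitotic members was low in mouse 5, at 4.50 against 4.78 to 4.87 (0.767), and the replication minus mitotic difference was high there, at 1.40 against 1.17 to 1.23 (0.749). Mcm7 was high in mouse 2, at 6.92 against 6.66 to 6.73 (0.72), Tk1 high in mouse 4, at 5.69 against 5.66 (1), and Birc5 low in mouse 3, at 3.97 against 4.02 (1). The second Tk1 probe set was not high in mouse 4, at 5.34 within 5.09 to 5.73 in the others.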

How the results depend on the processing

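No paired analysis was possible because the mice form 1 group. No member passed the adjusted threshold of limma under any alternative, and of 151 alternative slopes of the 10 detected members 132 kept their sign (adjusted p 0.492 to 1). At an unadjusted p under 0.05, against 0 members, there were 2 without mouse 4 (Mki67 and Mcm5), 1 without mouse 1 and 1 each with renormalized and centred arrays. Of all genes, 3 passed with a filter of 7, 4 with renormalized arrays, 4 with centred arrays, 4 with array weights and 35 without genes of equal values on 3 or more arrays; other filters, ranks of T2, other variance models, the mean of probe sets and leaving out each mouse gave 0. The detected members were 22 at a filter of 5 and 4 at 7.

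Slopes that changed sign were those of Mcm4 with renormalized arrays (0.0096), centred arrays (0.012) and ranks of T2 (0.0057 per rank), Pcna and Rrm1 with centred arrays (0.0013 and 0.0017), and, with array weights, Mcm3 (-0.0168), Mcm5 (-0.0222), Pcna (0.0029) and Mki67 (-0.0033). Leaving out each mouse moved the slope between -0.00412 and 0.0107 for Cdt1, -0.0282 and 0.0447 for Mcm2, -0.0296 and 0.0227 for Mcm3, -0.0113 and 0.0125 for Mcm4, -0.035 and 0.0302 for Mcm5, 0.0246 and 0.0629 for Mcm6, 0.00645 and 0.0347 for Mcm7, -0.0223 and 0.00558 for Pcna, -0.0321 and 0.00313 for Rrm1, and -0.00549 and 0.0511 for Mki67, which was the mitotic class at the main filter. The lowest values for Mcm2, Mcm3, Mcm5, Rrm1 and Mki67 came without mouse 5. Mcm6 was lowest without mouse 5 and Mcm7 without mouse 2, and both kept their sign. Without mouse 5 Mcm2, Mcm3, Mcm5 and Rrm1, and without mouse 2 Mki67 (0.0362) had a slope of larger size than Mcm6. The cause was not tested.

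Chosen after seeing the data were the results over all measured members and the counts in mouse 5. Leaving out each mouse moved the replication slope between -0.00462 and 0.0172, the mitotic slope between -0.0115 and 0.0471, the difference between -0.0300 and 0.00688, and the members with a slope above 0 between 10 and 30. With the median of members in place of the mean the mitotic slope was 0.0594 and the difference -0.0502, and with centred arrays the replication slope was 0.023. The other mitotic genes lowest in mouse 5 were 38 of 57 with renormalized and 44 with centred arrays, against 25. The background rose too: 33.6% and 37.7% of genes tested were lowest in mouse 5 in these settings, against 9.75%. With a filter of 7, or without Mki67, Top2a and Ccna2 at the main filter, no mitotic member was left, so these gave no value. Low signal kept 16 of the 17 measured mitotic members out of the test.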
